A study of Bos taurus with 18 samples.

Results

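A set of 5 genes known as markers of macrophages or of B-lineage cells were followed in the rumen papillae of 18 Holstein cows. The genes were *AIF1* (ENSBTAG00000020554), *CD5L* (ENSBTAG00000022514), *ADAM28* (ENSBTAG00000001125), *IGLL1* (ENSBTAG00000031160) and *RGS1* (ENSBTAG00000021672), which are 5 of the 24616 genes in the deposited table. They were chosen by name, as genes that mark immune cells in the tissue. Their symbols came from the study's list of genes that differed between diets. That list was made with thresholds on fold change and false discovery rate in these same cows, and each of the 5 was listed in at least 1 comparison. Their differences below, and their counts and medians beside those of all genes, are thus not independent evidence.

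The cows were lactating and multiparous, and 6 were fed each diet. The diets were total mixed rations whose main forage was alfalfa hay (AH, which also held some Chinese wild rye hay), corn stover (CS) or rice straw (RS). All 3 diets shared one concentrate mixture and corn silage. Papillae were cut from the ventral sac after slaughter at the end of the feeding trial, and their RNA was sequenced in bulk. Ages were not given. The study described the diets as differing in energy density, protein and particle size, which cannot be told apart from the forage itself. A papilla holds squamous epithelium over a core of connective tissue, vessels and immune cells, and in such bulk samples fewer cells of a type and less RNA per cell cannot be told apart.

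Macrophages take up particles and dying cells and sit in the connective tissue of most organs. B-lineage cells carry or secrete immunoglobulins, and in the gut wall they lie in follicles and as scattered plasma cells. *AIF1*, also known as IBA1, encodes a calcium- and actin-binding protein of macrophages, and *CD5L* encodes a secreted macrophage protein built of scavenger receptor cysteine-rich domains. *ADAM28* encodes a membrane metalloproteinase of lymphocytes that some epithelia also make. *IGLL1* encodes a part of the surrogate light chain of B-cell precursors and resembles the lambda light chains of antibodies. *RGS1* encodes a GTPase activator that damps chemokine receptor signalling in B cells and also in T cells, so it marks lymphocytes more broadly than B cells alone. In RefSeq's gene order of another assembly (ARS-UCD2.0), *IGLL1* lies beside *VPREB1*, which encodes the other part of the surrogate light chain, *RGS1* lies among further RGS genes, *CD5L* lies near the Fc receptor-like genes *FCRL1* and *FCRL3*, and *AIF1* lies beside *LST1* and *NCR3*.

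The values are CPM (counts scaled to the same total of reads on annotated genes in each cow), and 1 table held all cows. The libraries held between 16099131 and 32252177 reads on genes, and the AH 3 and RS 3 cows (the third cow of each diet) had the most. Genes over 1 CPM in at least 3 of the 6 cows of at least 1 diet were tested, which were 13284 genes with all 5 members among them. The diets were compared on log2(CPM + 0.5) with limma, and a gene was called DE where the adjusted p was under 0.05 and the mean CPM differed by more than 2-fold. The 3 comparisons share cows, since each diet enters 2 of them.

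None of the 5 members was a DE gene between any pair of diets by limma, by edgeR's quasi-likelihood test or by DESeq2. Among all genes tested by limma, 0.00753% were DE between AH and CS, the same 0.00753% between AH and RS, and 0% between RS and CS, so such a call was rare for any gene. At an unadjusted limma p under 0.05, 1 member (*AIF1*) passed in AH vs. CS, where 1.87% of all genes did. In AH vs. RS 2 members (*AIF1* and *IGLL1*) passed, against 1.79% of all genes, and in RS vs. CS 1 member (*ADAM28*) passed, against 1.29%. The means of 2 members differed by more than 2-fold in AH vs. CS, where those of 1.67% of all genes did, and these were *AIF1* and *ADAM28*. The same held for *AIF1*, *CD5L* and *IGLL1* in AH vs. RS (3 members, and 1.6% of all genes). It held for *CD5L*, *ADAM28* and *IGLL1* in RS vs. CS (3 members, and 1.45% of all genes). All 5 differences on the log2 scale lay below 0 in AH vs. CS, with a median of -1.13, whereas the median over all genes was 0.04. Without AH 4 and AH 6, the cows lowest for several members, 3 of the 5 lay below 0 (*IGLL1* and *RGS1* were above) and the median was -0.22. By the ratio of mean CPM, *CD5L* was above 0 as well. In AH vs. RS the median of the members was -1.17, with 3 of 5 below 0, and the median over all genes was 0.03. Without AH 4 and AH 6 the median was -0.69, again with 3 of 5 below 0. The median in RS vs. CS was -0.02, beside 0.01 over all genes.

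*AIF1* was lower in the cows fed AH than in those fed either straw-type forage, at a limma p that did not pass adjustment. The 6 AH cows had 15.3, 21.0, 28.2, 6.84, 17.3 and 9.42 CPM in the order of their numbers. The CS cows had 42.7, 43.4, 24.8, 36.9, 34.8 and 28.1 CPM, and the RS cows 26.4, 37.0, 34.9, 42.1, 34.5 and 30.5 CPM. All AH cows but AH 3 were lower than each of the 12 other cows, while the CS and RS cows covered the same range. The AH mean was 16.4 ± 7.79 CPM, the CS mean 35.1 ± 7.55 and the RS mean 34.2 ± 5.40 (SD, n = 6). The mean of CS was 2.15-fold that of AH, and the mean of RS was 2.09-fold that of AH.

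On the log2 scale *AIF1* was lower in AH by a difference of -1.19 (SE 0.27) vs. CS, with an exact permutation p of 0.0065 and a limma p adjusted over all genes of 0.580. The difference in AH vs. RS was -1.17 (SE 0.27), with an exact permutation p of 0.0043 and an adjusted limma p of 0.399. Over the alternatives the adjusted limma, edgeR or DESeq2 p of AH vs. CS ranged from 0.0879 to 1.00, and that of AH vs. RS from 0.0660 to 1.00. In RS vs. CS the difference was -0.02 (SE 0.27), with an exact permutation p of 0.870, and it turned to between 0.01 and 0.05 without CS 1, CS 2, RS 1 or RS 6 in turn. The AH 4 and AH 6 cows were the lowest. Without them the difference was -0.77 against CS and -0.75 against RS. The unadjusted limma p-values rose to 0.0020 and 0.0026, from 0.00022 and 0.00027 with all cows.

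**Figure D1:**
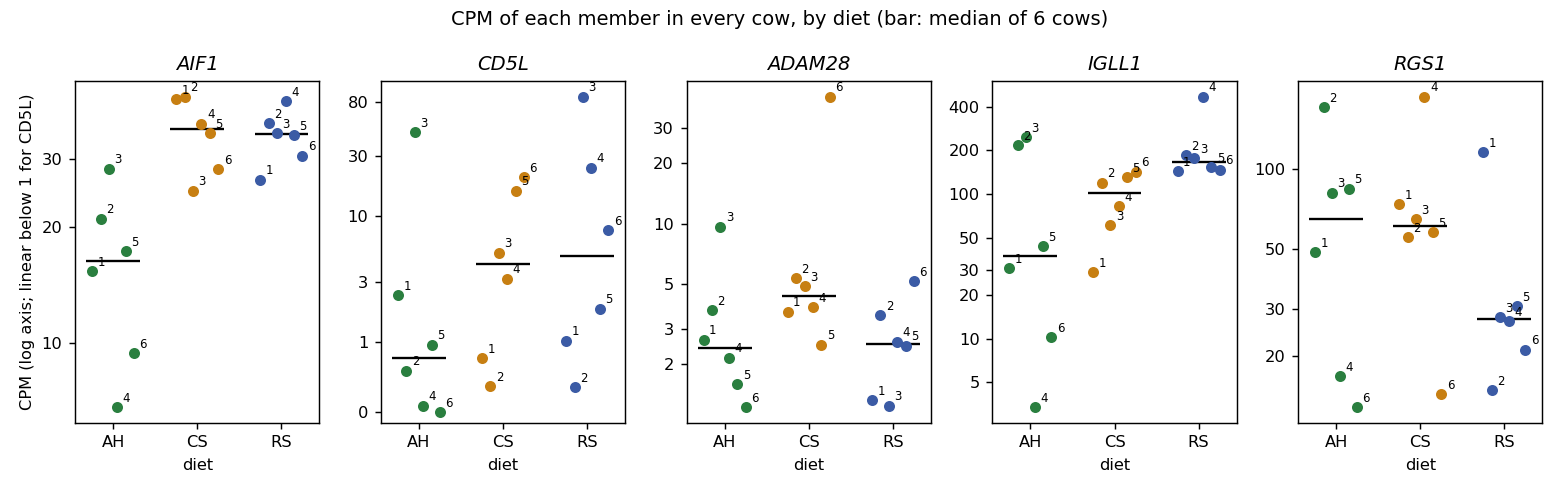
CPM of *AIF1*, *CD5L*, *ADAM28*, *IGLL1* and *RGS1* (vertical log axes, linear below 1 CPM for *CD5L*) in each of the 6 cows per diet, with the cow's number beside its point and a bar at the median. For *AIF1*, 5 of the 6 AH cows lie below every CS and RS cow. For *IGLL1*, every RS cow lies above every CS cow.

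*CD5L*, the other macrophage marker, was spread so widely within each diet that no difference between diets was larger than the spread. The AH cows had 2.37, 0.590, 46.0, 0.0918, 0.964 and 0 CPM. The CS cows had 0.772, 0.373, 5.12, 3.19, 15.9 and 20.3 CPM, and the RS cows 1.03, 0.354, 88.1, 24.2, 1.84 and 7.73 CPM. The groups overlapped throughout, and single cows set the means. The AH 3 cow held 92.0% of the summed CPM of its diet, and the RS 3 cow held 71.5%. In the AH 6 cow no read was counted, which allows up to 3 reads or 0.146 CPM. More than 1 CPM was found in 2 AH cows, 4 CS cows and 5 RS cows.

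*CD5L* had an AH mean of 8.33 ± 18.5 CPM, a CS mean of 7.60 ± 8.40 and an RS mean of 20.5 ± 34.3 (SD, n = 6), and the medians were 0.777, 4.15 and 4.78 CPM. In AH vs. CS the means and the medians gave opposite directions. The mean of AH was 1.10-fold that of CS, whereas the median of CS was 5.35-fold that of AH and the log2 difference was -1.16 (SE 1.16, exact permutation p = 0.366). Without AH 3 the mean of CS was 9.46-fold that of AH. In AH vs. RS the log2 difference was -1.63 (SE 1.16), with an exact permutation p of 0.277. The mean of RS was 2.47-fold that of AH with all cows, 25.6-fold without AH 3, and 0.843-fold without RS 3. In RS vs. CS the log2 difference was 0.47 (SE 1.16), with an exact permutation p of 0.723, and it turned to -0.30 without RS 3 and to -0.0019 without CS 2.

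Among the B-lineage genes, *IGLL1* was the one whose CS and RS cows did not overlap. The RS cows had 143.4, 185, 177, 472, 154 and 147 CPM and the CS cows 28.8, 119.9, 61.1, 82.5, 130.2 and 142.9 CPM. The AH cows had 30.8, 218, 246, 3.35, 43.5 and 10.2 CPM. Every RS cow was thus above every CS cow, with the closest pair at 143.4 and 142.9 CPM, while the AH cows reached from far below both groups to the level of the higher RS cows. Among all genes tested, 0.0452% had every RS cow above every CS cow.

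*IGLL1* had an AH mean of 92.0 ± 109.8 CPM, a CS mean of 94.2 ± 44.3 and an RS mean of 213 ± 128 (SD, n = 6). The mean of RS was 2.26-fold and its median 1.64-fold that of CS. The log2 difference in RS vs. CS was 1.21 (SE 0.76). Its exact permutation p was 0.0022, the smallest that 6 against 6 cows can give, whereas the unadjusted limma p was 0.127 and the adjusted one 1.00. The limma error is pooled over the 3 diets and so contains the spread of the AH cows. The alternatives run included a fit with only the RS and CS cows. Over all alternatives the adjusted limma, edgeR or DESeq2 p of RS vs. CS stayed at 0.9995 or above. Whether the AH spread explains the gap between the permutation and limma p-values was not tested.

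In AH vs. RS the *IGLL1* difference was -2.34 (SE 0.76), with an exact permutation p of 0.0455, an unadjusted limma p of 0.0058 and an adjusted one of 1.00. Of the 6 AH cows, 4 were lower than any cow fed RS, and the other two, AH 2 and AH 3, were above all RS cows but RS 4. Without AH 4 and AH 6 the log2 difference was -1.05. The mean of RS was 2.32-fold that of AH with all cows and 3.48-fold without AH 3. In AH vs. CS the log2 difference was -1.13 (SE 0.76, exact permutation p = 0.303), but the means differed by a ratio of only 0.976, and without AH 4 and AH 6 the log2 difference was 0.15. Reads that mapped to several places had been removed before counting. Because *IGLL1* resembles light chain genes, how its reads were split from those of such copies is uncertain.

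*ADAM28* had few reads in most cows and 1 cow far above the rest. The CS cows had 3.64, 5.34, 4.89, 3.84, 2.49 and 42.9 CPM. The AH cows had 2.65, 3.70, 9.66, 2.16, 1.59 and 1.22 CPM, and the RS cows 1.32, 3.50, 1.24, 2.58, 2.47 and 5.17 CPM. The 3 groups overlapped, and CS 6 alone held 68.0% of the summed CPM of its diet. The AH mean was 3.50 ± 3.14 CPM, the CS mean 10.5 ± 15.9 and the RS mean 2.71 ± 1.47 (SD, n = 6). In RS vs. CS the mean of CS was 3.88-fold that of RS, but 1.49-fold without CS 6, and the ratio of the medians was 1.73. The log2 difference was -1.13 (SE 0.54), with an exact permutation p of 0.0498, an unadjusted limma p of 0.0497 and an adjusted one of 1.00, and it was -0.59 without CS 6.

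In AH vs. CS the *ADAM28* difference was -0.97 (SE 0.54, exact permutation p = 0.184) and -0.42 without CS 6. The mean of CS was 3.01-fold that of AH, 1.16-fold without CS 6 and 4.65-fold without AH 3. In AH vs. RS the log2 difference was 0.16 (SE 0.54, exact permutation p = 0.736) and turned to -0.16 without AH 3.

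*RGS1* differed less between the diets than between the cows of each diet. The AH cows had 48.8, 169.6, 81.4, 16.8, 84.2 and 12.8 CPM. The CS cows had 73.6, 55.5, 64.7, 186, 57.8 and 14.4 CPM, and the RS cows 115, 14.9, 27.8, 26.9, 30.6 and 21.1 CPM. In RS 5 of the 6 cows were at or below 30.6 CPM and in CS 5 of the 6 were at or above 55.5 CPM, with RS 1 and CS 6 the exceptions, so these groups overlapped only through 1 cow on each side. The AH mean was 68.9 ± 58.0 CPM, the CS mean 75.4 ± 58.0 and the RS mean 39.4 ± 37.5 (SD, n = 6), and the medians were 65.1, 61.3 and 27.4 CPM.

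In RS vs. CS the *RGS1* log2 difference was -0.93 (SE 0.61), with an exact permutation p of 0.167. The mean of CS was 1.91-fold that of RS with all cows, 3.11-fold without RS 1 and 1.35-fold without CS 4, where the log2 difference was -0.60. The log2 difference in AH vs. RS was 0.64 (SE 0.61, exact permutation p = 0.375), and the mean of AH was 1.75-fold that of RS with all cows, 2.84-fold without RS 1 and 1.24-fold without AH 2. The log2 difference was 1.02 without RS 1 and 0.28 without AH 2. Without AH 4 and AH 6, the lowest AH cows for *RGS1*, the log2 difference in AH vs. RS was 1.48. The unadjusted limma p was then 0.0180, against 0.307 with all cows. These cows were left out after seeing the data, and leaving out the lowest AH cows can only raise AH, so that p is no evidence. In AH vs. CS the log2 difference was -0.28 (SE 0.61, exact permutation p = 0.736). It turned to 0.05 without CS 4, to 0.01 without AH 4, to 0.09 without AH 6 and to 0.56 without AH 4 and AH 6. The 15 exact permutation tests of members and diets were two-sided and are given unadjusted.

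**Figure D2:**
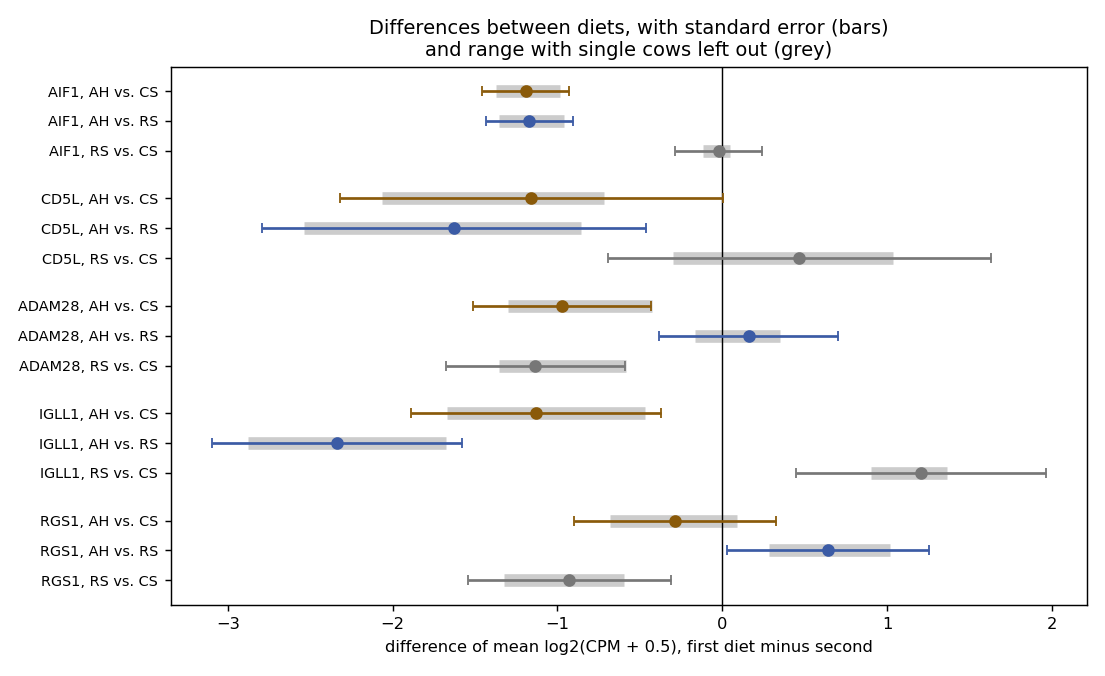
Differences between diets for each member on log2(CPM + 0.5) with all 18 cows (points, with bars of 1 SE by limma), and the range when 1 cow is left out (grey). The *AIF1* points for AH lie at -1.19 against CS and -1.17 against RS and their ranges stay below 0, whereas the range of *CD5L* in RS vs. CS crosses 0.

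The genes differed in how evenly cows of one diet carried them. The SD of log2(CPM + 0.5) within diets was 2.30 for *CD5L*, more than that of 99.9% of the tested genes. It was 1.50 for *IGLL1* (99.3% of genes lower), 1.21 for *RGS1* (98.2%) and 1.03 for *ADAM28* (95.9%). *AIF1* stood apart with an SD of 0.48, close to the 0.49 of the median gene (47.8% of genes lower). A wide spread was not particular to the members. Among other genes of the study's list, *HLA-DQA1* had an SD of 2.61 (99.98%) and *CR2* one of 2.33 (99.94%), whereas *EPHX2* had 0.38 (30.7%).

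Some cows were low or high for several members at once. The AH 4 and AH 6 cows were among the lowest 5 of 18 for all 5 members, and AH 6 was lowest for *CD5L*, *ADAM28* and *RGS1*. The AH 3 cow was among the highest 5 for all members except *AIF1*. No CS or RS cow was among the lowest 5 for more than 2 members.

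**Figure D3:**
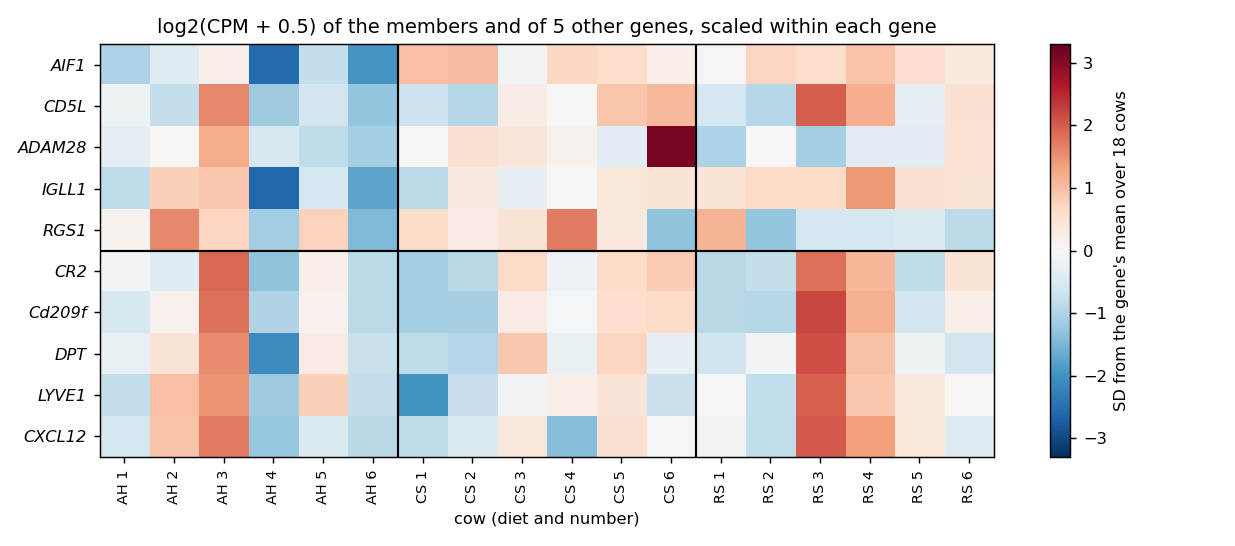
Level of each member in each cow, and below the line of 5 other genes (*CR2*, *Cd209f*, *DPT*, *LYVE1*, *CXCL12*), as log2(CPM + 0.5) minus the gene's mean over the 18 cows and divided by their SD (colour scale). AH 4 and AH 6 are low for all 5 members, CS 6 is high for *ADAM28* while low for *RGS1*, and AH 3 and RS 3 are high for *CD5L* and for the 5 genes below the line.

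Of the 10 pairs of members, 1 passed adjustment over the pairs by Pearson r over the 18 cows, and none by Spearman rho. *AIF1* and *IGLL1* had a Pearson r of 0.79 (permutation p = 0.00047, Benjamini-Hochberg adjusted over 10 pairs 0.0047). Their Spearman rho was 0.41 (permutation p = 0.0948, adjusted 0.474). The r fell to 0.39 without AH 4 and AH 6, the 2 cows farthest from the median of *AIF1*, so the size of r over all diets rested on those cows. With the diet means subtracted r was 0.81. Within AH r was 0.97 (exact permutation p = 0.0028, adjusted over 10 pairs 0.0278). Within RS, which holds neither of those cows, r was 0.79 (exact permutation p = 0.0472, adjusted 0.472) and rho was 1.00 (exact permutation p = 0.0028, unadjusted). Within CS r was -0.22 (exact permutation p = 0.717) and rho -0.20. *CD5L* and *IGLL1* had an r of 0.58 (permutation p = 0.0111, adjusted 0.0555) and a rho of 0.50 (permutation p = 0.0344, adjusted 0.344).

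The macrophage markers did not follow each other closely. *AIF1* and *CD5L* had an r of 0.43 over all cows, 0.77 in AH, 0.35 in RS and -0.71 in CS. Within AH all 10 pairs had a positive r, between 0.46 and 0.97, and the same AH 4 and AH 6 cows were low throughout. *RGS1* and *ADAM28* had an r of -0.82 in CS (exact permutation p = 0.0847, adjusted over 10 pairs 0.559) and -0.67 in RS (exact permutation p = 0.143, adjusted 0.477), beside 0.54 in AH, so none of these passed. CS 6 had both the highest *ADAM28* and the lowest *RGS1* of its diet.

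**Figure D4:**
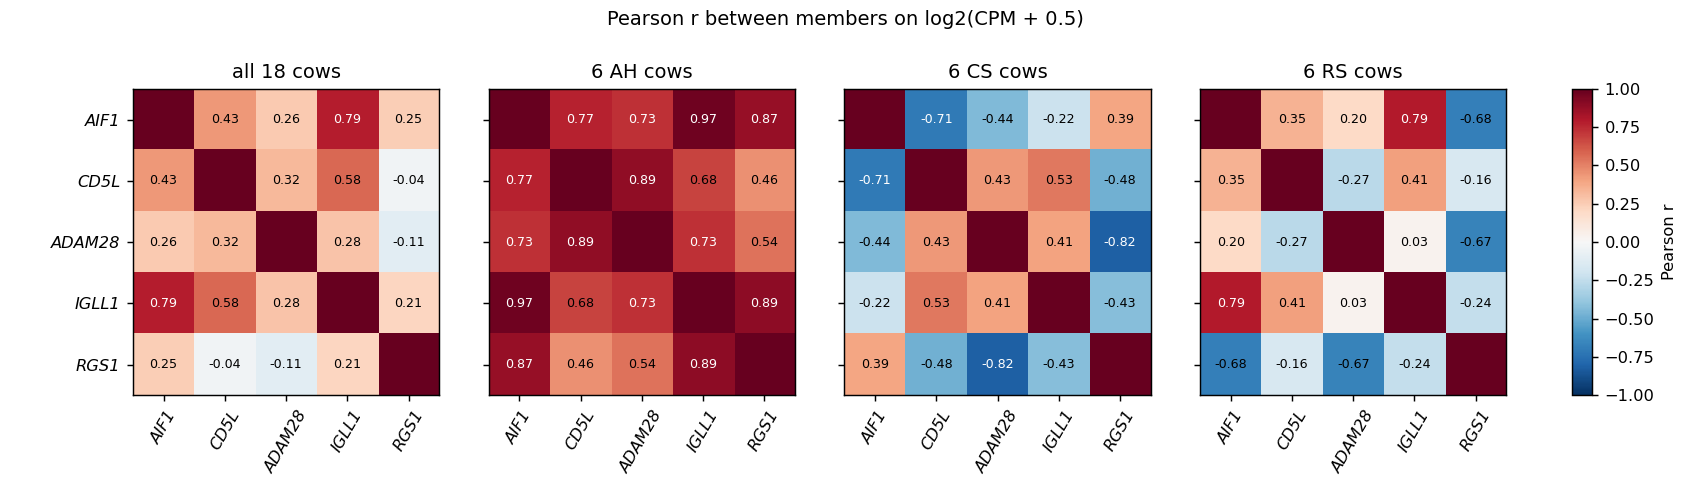
Pearson r between members on log2(CPM + 0.5) over all 18 cows and within each diet of 6 cows. The AH panel is positive throughout, with *AIF1* and *IGLL1* at 0.97, whereas the CS and RS panels hold both signs and *ADAM28* and *RGS1* reach -0.82 in CS.

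The genes most like each member were named among the 68 other tested genes that could be paired with a symbol, by Pearson r over 18 cows. All 68 had symbols from the study's list of genes that differed between diets in these cows. A likeness that follows diet was thus partly fixed by that choice. The r values are descriptions, and the cows share their depth and tissue make-up across genes. *CD5L* was closest to *CR2*, the complement receptor of B cells and follicular dendritic cells, with an r of 0.94 and a rho of 0.88. Within AH, CS and RS the r was 0.96, 0.94 and 0.98, and over the cows other than AH 3 and RS 3 it was 0.90. The gene labelled *Cd209f*, of a family of C-type lectins of macrophages and dendritic cells, followed with 0.92, and *TGM2*, a transglutaminase, with 0.85. *AIF1* had an r of 0.30 with *CR2*, *IGLL1* one of 0.54, *ADAM28* one of 0.30 and *RGS1* one of 0.0021.

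*AIF1* was most like the antimicrobial peptide gene *TAP* (r = 0.91), the complement gene *CFB* (0.82) and the calprotectin gene *S100A9* (0.81). With the diet means subtracted these became 0.76, 0.75 and 0.37. Within AH, CS and RS in turn, *TAP* had an r of 0.79, 0.70 and 0.66, *CFB* of 0.91, 0.72 and -0.16, and *S100A9* of 0.64, -0.02 and -0.46. Of the 3 genes *TAP* alone was thus positive in each diet. *IGLL1* was most like the complement genes *C2* (0.83) and *C3* (0.81), then *PLXDC1* (0.79), and these were 0.74, 0.77 and 0.74 with the diet means subtracted. Within AH, CS and RS in turn, *C2* had an r of 0.95, 0.25 and -0.12, *C3* of 0.82, 0.78 and 0.75, and *PLXDC1* of 0.92, 0.27 and 0.47. *RGS1* was most like *APOLD1*, an early response gene of endothelium (0.74), and the pyruvate dehydrogenase kinase gene *PDK4* (0.62), then the peptide gene *LAP* (0.35). *ADAM28* was unlike any of them, and its highest r were 0.35 with *SLC6A14*, 0.31 with *LAP* and 0.30 with *CR2*. Among all other tested genes, 93 had an r over 0.8 with *CD5L*, 16 with *IGLL1*, 4 with *AIF1*, 2 with *RGS1* and 0 with *ADAM28*. For *AIF1* the closest of all tested genes was *TAP*. The closest to each other member was a gene with no paired symbol. Its r was 0.945 for *CD5L*, 0.950 for *IGLL1*, 0.831 for *RGS1* and 0.692 for *ADAM28*.

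**Figure D5:**
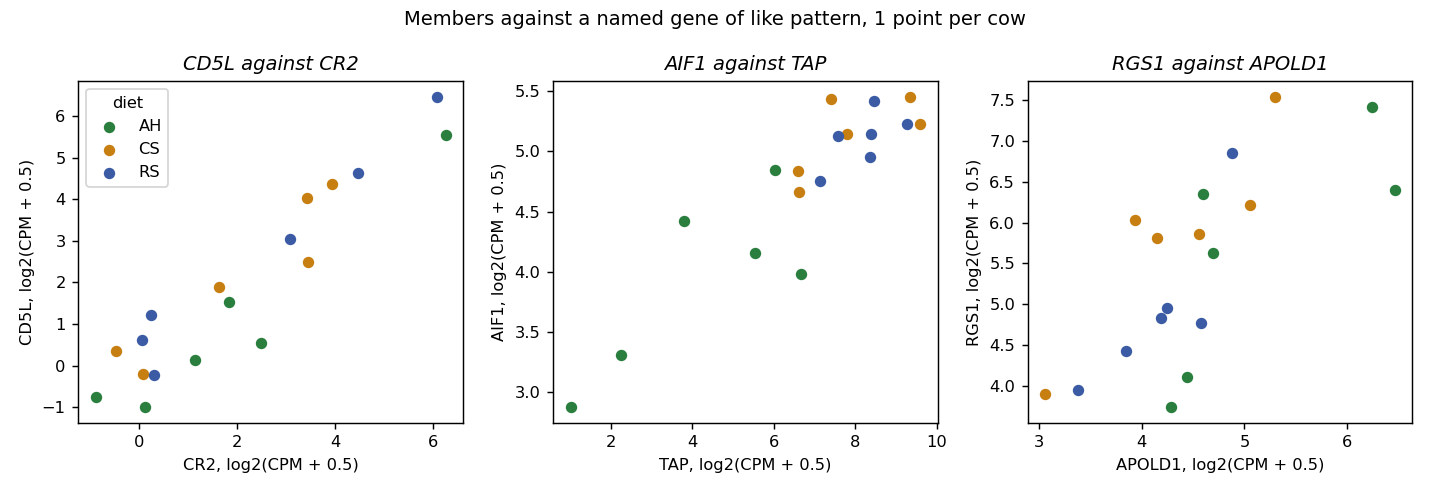
*CD5L* against *CR2*, *AIF1* against *TAP* and *RGS1* against *APOLD1*, both axes as log2(CPM + 0.5), with 1 point per cow coloured by diet. The *CD5L* points of all 3 diets lie along one line (r = 0.94), whereas in the *AIF1* panel (r = 0.91) 5 of the 6 AH cows lie below every other cow.

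Marker lists of other cell types could be read only in small part. Of 235 symbols in 18 lists, 5 (2.13%) could be paired with an identifier, none of them among the macrophage, plasma cell, T cell or squamous epithelium markers, so neither the tissue label nor the macrophage label was checked by other markers here. The 5 were *CR2* for B cells, *DPT* for fibroblasts, *LYVE1* for lymphatic endothelium, *CXCL12*, a chemoattractant of lymphocytes, and *SCARA5*, a scavenger receptor. None of the 5 was a DE gene in any comparison by limma, and *CR2* had an exact permutation p of 0.898 for AH vs. CS, 0.704 for AH vs. RS and 0.781 for RS vs. CS.

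The cows that set the *CD5L* means were also high for these genes. AH 3 and RS 3 had 75.7 and 67.1 CPM of *CR2*, 157 and 266 CPM of *DPT*, and 52.9 and 78.3 CPM of *LYVE1*. They had 125 and 161 CPM of *CXCL12* and 126 and 142 CPM of *SCARA5*. RS 3 was nevertheless among the lowest 5 cows for *ADAM28*, and AH 3 was not among the highest 5 for *AIF1*. The AH 4 cow, low for all members, had 0.0459 CPM of *CR2*, 3.95 of *DPT*, 5.60 of *LYVE1* and 10.9 of *CXCL12*. AH 6, also low for all members, had 0.586 CPM of *CR2*, 16.0 of *DPT*, 7.95 of *LYVE1* and 14.7 of *CXCL12*. The *CR2* and *DPT* values of AH 4 were the lowest of the 18 cows. Its *CR2* value was that of 1 read, below the 0.138 CPM that a count of 0 allows in this cow. CS 1 was below AH 4 with 2.70 CPM of *LYVE1*, as was CS 4 with 9.73 of *CXCL12*. CS 1 and CS 2 were below AH 6, with 14.7 and 12.7 CPM of *DPT* and 0.221 and 0.559 of *CR2*, the last being close to the 0.586 of AH 6. None of these CS cows was low for all members. These genes were thus high where *CD5L* was highest, and their part in the differences between diets was not tested.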

How the data were processed

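RNA of rumen papillae from 18 cows was sequenced as paired-end reads. The authors aligned reads to UMD3.1 with TopHat2, dropped reads with several hits and used HTSeq for gene counts, which were deposited as CPM. Tool versions are not given in the sources used here. For extraction the labels name rectal tissue and a mirVana kit where the paper describes papillae and TRIZOL, and which holds was not tested. No batch, lane or date is named.

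The 5 members and the marker lists were chosen with earlier results of these data known. Symbols came from the study's supplementary list of genes that differed between diets, which pairs 73 identifiers.

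Dividing the CPM by what 1 read is worth gave whole numbers (all but 1 of 443088 values at a tolerance of 0.02) and 16099131 to 32252177 reads per cow. A count of 0 allows 3 reads, or 0.0930 to 0.186 CPM, for counting error only. No pair of cows of one diet agreed within sampling noise (chi-square per degree of freedom 44.1 to 348 over 45 pairs). The paper names a randomized complete block design for its fermentation, papilla width and PCR data, but not which cows formed a block. Whether cows with the same number form pairs is not stated.

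Genes that passed 1 CPM in 3 or more cows of any diet entered limma 3.58.1 on the log2(CPM + 0.5) scale (R 4.3.3, trend, all 18 cows, Benjamini-Hochberg). This scale understates changes of low genes. Exact permutation tests were two-sided, and correlations over 18 cows used 100000 resamples. The genes named are the 5 members, up to 3 paired genes per list, and the 3 named genes with the highest r per member. Alternatives changed the pseudocount, filter, scaling, cows in the model, replicate block and single cows, and on recovered reads edgeR 4.0.16 and DESeq2 1.42.0 were run. The scripts were tested on simulated data.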

Additional observations from a re-analysis of the deposited data

Results flagged for a closer look

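Of the 15 groups of 6 cows (5 members in 3 diets), 3 held 1 cow whose gap to the nearest other, as a share of the group's range on the log2 scale, was above Dixon's 95% critical value of 0.625. Chance flags about 1 in 20 groups of unselected values. The members came from a list made in these cows by a ratio of mean CPM, which 1 high cow can raise. That rate is thus no yardstick for the 3 groups here. *ADAM28* was at 42.9 CPM in CS 6 (gap share 0.750), where the other CS cows had 2.49 to 5.34 CPM. *IGLL1* was at 472 CPM in RS 4 (0.786), where the other RS cows had 143.4 to 185 CPM. *RGS1* was at 115 CPM in RS 1 (0.651), where the other RS cows had 14.9 to 30.6 CPM. A different cow stood out for each of the 3 genes.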

How the results depend on the processing

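None of the 5 members became a DE gene under any of the alternatives run. The count of DE genes in AH vs. CS (1) became 0 with only the 12 cows compared and 5 with DESeq2, and ranged from 1 to 2 with single cows left out (2 without AH 1, AH 5 or CS 1). In AH vs. RS (1) it became 7 with DESeq2 and 0 without AH 3 and RS 3, and ranged from 1 to 5, with 5 without RS 6 and 2 without AH 1 or RS 5. In RS vs. CS (0) it became 1 with no filter and ranged from 0 to 6, with 6 without RS 6. The pairs of members past adjustment (1) became 2 with a pseudocount of 0.1 and 0 without AH 4 and AH 6, and ranged from 0 to 2, with 0 without AH 4 and 2 without AH 2, CS 2, RS 1 or RS 2.

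Cows of different diets with the same number were not taken as pairs, since neither the labels nor the paper say which cows formed a block. Their deviations correlated between -0.48 and 0.71, with 12 of 18 correlations over 0.1. The exact permutation tests took no account of blocks. With the replicate block the count of DE genes rose to 2 in AH vs. RS, and stayed at 1 for AH vs. CS and at 0 for RS vs. CS. It changed no other call.

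Directions turned as follows, and the cause was not tested. *CD5L* in AH vs. CS became 0.26 with edgeR, 0.29 with DESeq2 and 0.13 as the ratio of means, all as log2. *RGS1* in AH vs. CS became 0.087 as the ratio of medians and 0.56 without AH 4 and AH 6, and ranged from -0.68 to 0.089 with single cows left out. *ADAM28* in AH vs. RS became -0.070 as the ratio of medians and -0.32 without AH 3 and RS 3, and ranged from -0.16 to 0.35. *CD5L* in RS vs. CS became -0.30 without AH 3 and RS 3 and ranged from -0.30 to 1.04. *AIF1* in RS vs. CS ranged from -0.12 to 0.048. *IGLL1* in AH vs. CS became 0.15 without AH 4 and AH 6. The settings without AH 3 and RS 3 and without AH 4 and AH 6 were chosen after seeing the data. With single cows of a compared diet left out, 170 of 180 member differences kept their direction, and none passed the threshold. Of the members, *CD5L* and *ADAM28* had the lowest counts, from 0 to 2843 reads and from 25 to 788 reads per cow. How far depth limited their differences was not tested.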
